A study of Mus musculus with 6 samples.

Results

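The Notch receptors Notch1, Notch2, Notch3 and Notch4, the ligands Dll1, Dll4, Jag1 and Jag2 and the target genes Hes1 and Hey1 were followed across 3 populations of thymic epithelial cells (TEC). They were found by gene name among the non-control probes of 6 arrays, older synonyms included, which gave 14 probes of 41174. All 10 genes, among 18221 that passed the filter on dim probes, were tested. No member passed the test in any of the 3 comparisons. The sizes were nevertheless uneven. Jag1, Jag2, Hey1, Hes1 and Notch3 lay higher on both Meis1-high arrays than on both Meis1-low arrays, as 22.6% of all genes did. Their differences were 0.97 to 3.19 on the log2 scale. With another background correction those of Jag2, Hes1 and Notch3 shrank to 1.09, 1.15 and 0.57. Notch4 lay lower, as 31.1% of all genes did, but was not well above background on either Meis1-high array.

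All cells came from C57BL/6 mice aged 4 weeks that carried the bacterial artificial chromosome transgene Tg(Meis1-EGFP)FO156Gsat/Mmcd, in which regulatory sequence around Meis1 drives the green fluorescent protein EGFP. Sorting kept cells without the leukocyte marker CD45 and with the epithelial marker EpCAM. High EGFP and low forward scatter, a sign of small size, defined the Meis1-high gate. Cells of intermediate EGFP and high scatter made up the Meis1-low gate, and those of low scatter and no EGFP the Meis1-negative gate. Each gate has 2 arrays, from 2 independent experiments, and each array holds RNA from a pool of 6 mice. The labels do not say whether pools with the same replicate number came from the same mice. The gates rest on the reporter and on scatter together, so reporter level and cell size cannot be told apart in comparisons with Meis1-low. The Meis1-high and Meis1-negative gates were both of low scatter. Mice without the transgene were not analysed here. In such sorted pools, fewer cells of a type and less RNA per cell cannot be told apart either.

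Notch receptors are activated by ligands on a neighbouring cell. Cleavage by ADAM proteases and then by the γ-secretase complex frees the receptor's intracellular part, which joins the DNA-binding protein Rbpj and Mastermind proteins to switch on targets such as the Hes and Hey repressors. In the thymus, Dll4 on epithelial cells engages Notch1 on incoming progenitors and commits them to the T cell lineage, and Notch signals also act within epithelial progenitors.

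A level here is the log2 of the probe's background-subtracted signal minus the log2 of the 75th percentile of its array, so 0 is the 75th percentile and a difference of 1 is 2-fold. Probes differ in how they hybridise, so levels are compared between arrays for a probe and never between probes. Values of a gate are given for replicate 1 and then replicate 2. The 3 arrays of replicate 1 were on the same slide and were scanned together, and so were those of replicate 2.

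The 75th percentile signal ran from 73.4 to 164.9 over the 6 arrays, and 53.1% to 69.6% of spots were well above background. Meis1 itself had levels of 0.24 and 0.12 in Meis1-high, -2.35 and -1.61 in the Meis1-low pair, and -3.20 and -0.99 in Meis1-negative. Epcam and the other members of a list of 10 epithelial markers were well above background on all 6 arrays. Meis1-negative replicate 1 stood apart. Its epithelial markers had a log2 summed level of 5.76, against 7.65 to 8.96 on the other arrays, and its thymocyte markers had 10.15, against 2.90 to 4.44, with 15 of 18 highest there. Cd3e, a subunit of the T cell receptor complex, was at 6.82 on that array and between -1.98 and 1.12 on the others. The gate was sorted to lack CD45, encoded by Ptprc, yet Ptprc had levels of 5.17 and 3.17 in Meis1-negative, against 0.43 or less on the other 4 arrays. The main values that rest on Meis1-negative replicate 1 are therefore given with and without it. Values without it rest on replicate 2 alone for that gate, which had leukocyte signal of its own. On replicate 2, 6 of 13 dendritic cell and macrophage markers and 4 of 8 B cell markers were highest. Their log2 summed levels there were 5.36 and 2.56, against 2.89 to 5.53 and 0.40 to 1.91 on the other arrays.

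Of the 14 probes, 3 are printed. Hes1 has the largest standard error of the members, and the probes of Notch2 and of Jag1 gave different sizes. Each is written 5′ to 3′ on the strand of the transcript.
Hes1: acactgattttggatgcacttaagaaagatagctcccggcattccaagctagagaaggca
Jag1, dimmer probe: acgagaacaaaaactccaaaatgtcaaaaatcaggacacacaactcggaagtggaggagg
Notch2, dimmest probe: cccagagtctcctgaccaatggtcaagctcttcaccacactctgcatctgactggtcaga
In mm9 coordinates, as the file headers give the build, they match chr16:30065983-30066278, chr2:136908942-136909001 and chr3:97951205-97951264. The Hes1 probe has 60 bases but spans 296 bases of the genome, so its sequence is not contiguous there. Hes1 and Notch2 lie on the plus strand and Jag1 on the minus strand.

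**Figure D1:**
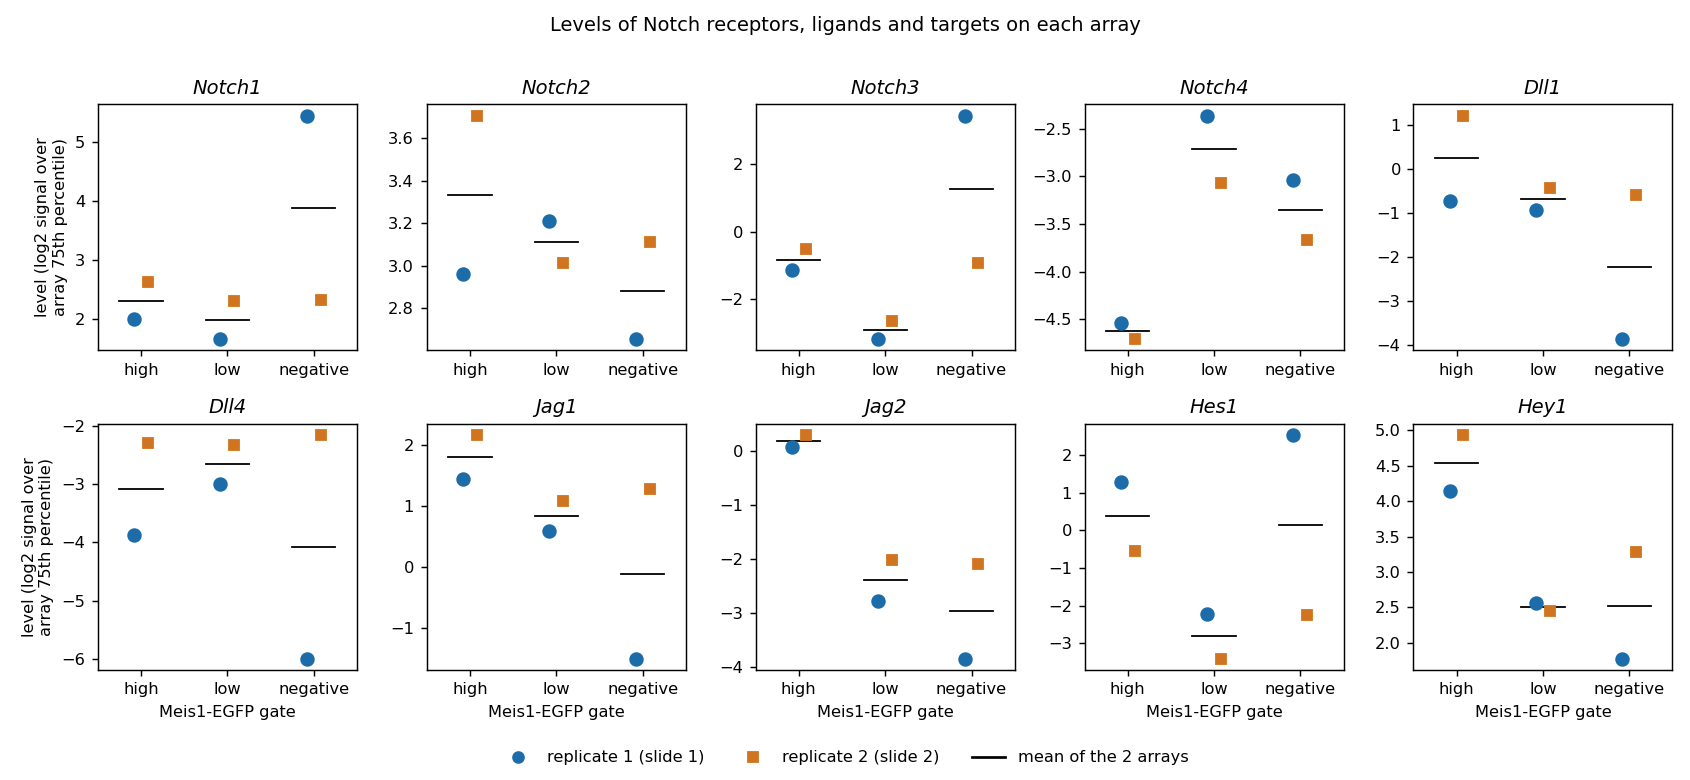
Level of the probe that represents each of the 10 genes (log2 signal over the array's 75th percentile) on each array, by gate. Circles are replicate 1, squares replicate 2 and lines the mean of the 2 arrays. The vertical axes differ between panels. Jag2 and Hey1 are higher on both Meis1-high arrays than on the other 4, while Notch1, Notch3 and Hes1 are highest on Meis1-negative replicate 1.

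Among the receptors, Notch1, the receptor that T cell progenitors need, was represented by a probe at chr2:26314830-26314889 (mm9, minus strand). Its levels were 2.00 and 2.62 in Meis1-high, 1.66 and 2.30 in the Meis1-low pair, and 5.45 and 2.32 in Meis1-negative. The first replicate of Meis1-negative was far above the other 5 arrays, and Meis1-high and Meis1-low overlapped. The difference between Meis1-high and Meis1-low was 0.33 ± 1.03 (SE, n = 2 arrays per gate; limma adjusted p = 0.920). Meis1-high minus Meis1-negative was -1.57 ± 1.03 (limma adjusted p = 0.643), and -0.01 without Meis1-negative replicate 1.

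A separate Notch1 probe at chr2:26314772-26314830 adjoins that site and is printed in 10 spots. Its spots on an array had an SD of 0.038 to 0.052, while the 2 Meis1-negative arrays differed with an SD of 2.26. It gave levels of 1.10, 1.68, 0.86, 1.32, 4.46 and 1.26 on the arrays in the same order. Both Notch1 probes thus put Meis1-negative replicate 1 highest, and the spread between pools was far wider than that between spots.

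Notch2, a receptor expressed in many tissues, has 3 probes, all well above background on the 6 arrays. The brightest, at chr3:97953914-97953973 (plus strand), had levels of 2.96 and 3.71 in Meis1-high, 3.21 and 3.01 in the Meis1-low pair, and 2.65 and 3.11 in Meis1-negative. The gates overlapped in every comparison. The dimmest probe, printed above, had -2.12 and -1.28 in Meis1-high, -3.34 and -2.68 in the Meis1-low pair, and -3.32 and -2.33 in Meis1-negative. There both Meis1-high arrays lay above the other 4. The size of Meis1-high minus Meis1-low therefore depends on the probe: 0.22 ± 0.62 for the brightest (limma adjusted p = 0.910), 1.32 ± 0.70 for the dimmest and 1.36 ± 0.81 for the remaining probe at chr3:97952843-97952902. Fitted probe by probe, neither of the dimmer pair passed the test (limma adjusted p = 0.498 and 0.548).

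Notch3, which thymocytes express and which also marks vascular smooth muscle and pericytes, was read at chr17:32257848-32257907 (minus strand). Its levels were -1.14 and -0.52 in Meis1-high, -3.18 and -2.65 in the Meis1-low pair, and 3.43 and -0.91 in Meis1-negative. Both Meis1-low arrays were below the other 4, and Meis1-negative replicate 1 was above all. Meis1-high minus Meis1-low was 2.08 ± 1.29 (limma adjusted p = 0.550), nearly the same on the 2 slides, at 2.04 and 2.13. Meis1-low minus Meis1-negative was -4.17 ± 1.29 (unadjusted p = 0.0134, limma adjusted p = 0.608). Without Meis1-negative replicate 1 it was -2.00, and Meis1-high minus Meis1-negative turned from -2.09 to 0.08.

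The fibroblast and pericyte markers had log2 summed levels of 7.55 and 7.11 in Meis1-high, 6.41 and 6.22 in the Meis1-low pair, and 5.72 and 6.71 in Meis1-negative. Of the 13 tested markers, 10 had a higher mean in Meis1-high than in Meis1-low, with a median difference of 1.02. The pericyte marker Pdgfrb was among the 3 with a lower mean, with levels of 1.61 and 0.23 in Meis1-high, and 2.22 and 1.51 in Meis1-low. Among the 10 were Rgs5 and Tagln, named after their values were seen. Rgs5 had 6.04 and 5.67 in Meis1-high, and 5.03 and 4.90 in Meis1-low. Tagln had 5.15 and 5.33, and 3.25 and 1.40. The part of such cells in the Notch3 difference was not tested.

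Notch4, a receptor best known from endothelium, was not well above background on either Meis1-high array. Its probe at chr17:34725120-34725179 (plus strand) had levels of -4.54 and -4.71 in Meis1-high, -2.36 and -3.07 in the Meis1-low pair, and -3.04 and -3.67 in Meis1-negative. Both Meis1-high arrays were below the other 4. The fitted difference of -1.91 ± 0.63 between Meis1-high and Meis1-low had an unadjusted p of 0.0176 and a limma adjusted p of 0.293. Because Meis1-high has only a bound, Notch4 was at least 1.87-fold higher in Meis1-low and, by the same rule, at least 1.20-fold higher in Meis1-negative. The bound sets the brighter gate's mean against the lowest signal well above background on each Meis1-high array. With all signals raised to that floor, the difference from Meis1-low was -0.91 (unadjusted p = 0.192). With normexp background correction it was -0.59 (unadjusted p = 0.283), and that from Meis1-negative was 0.032, so the direction against Meis1-negative depends on the background correction.

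Endothelial markers had log2 summed levels of 0.26 and 0.49 in Meis1-high, 1.64 and 0.93 in the Meis1-low pair, and 2.14 and 1.26 in Meis1-negative, with a sum in Meis1-high below that of the other gates. Their median level was -4.04 and -3.36 in Meis1-high, -3.54 and -2.95 in the Meis1-low pair, and -4.97 and -2.84 in Meis1-negative, so the median did not give the same order. Between 3 and 11 of the 14 were well above background on an array. Of the 8 tested, 6 had a lower mean in Meis1-high than in Meis1-low, with a median difference of -0.75, and 4 had a lower mean than in Meis1-negative, with a median of 0.07. Among those lower than in Meis1-low, the differences were -3.11 for Robo4, -2.05 for Plvap and -1.54 for Erg, 3 endothelial genes named after their values were seen. That of Erg rests on Meis1-low replicate 1, with -0.17 and -3.01 in Meis1-low against -3.12 and -3.13 in Meis1-high. Erg was highest on Meis1-negative replicate 1, at 1.62, where 3 of the 14 markers were well above background, and it enters the sum of 2.14 there. The remaining 2 of the 8 tested had a higher mean in Meis1-high than in Meis1-low. Cdh5, an endothelial cadherin, was at -2.31 and -2.82 in Meis1-high and at -3.77 and -2.88 in Meis1-low. Pecam1 was at -3.95 and -3.28 in Meis1-high and at -3.32 and -4.01 in Meis1-low. The part of endothelial cells in the Notch4 difference was not tested.

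Among the ligands, Dll4 is the thymic epithelial ligand for Notch1. Its probe at chr2:119160779-119160838 (mm9, plus strand) had levels of -3.88 and -2.29 in Meis1-high, -3.00 and -2.33 in the Meis1-low pair, and -5.99 and -2.16 in Meis1-negative. It was not well above background on replicate 1 of Meis1-high or of Meis1-negative, and on the latter its signal was a surrogate set by the scanner software. Replicate 2 of all gates lay between -2.33 and -2.16, and all gates overlapped.

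For Dll4, Meis1-high minus Meis1-low was -0.42 ± 1.24, with a 95% confidence interval from -3.32 to 2.48 (limma adjusted p = 0.914). Meis1-high minus Meis1-negative was 0.99 ± 1.24 (limma adjusted p = 0.799), and -0.93 without Meis1-negative replicate 1. These intervals are too wide to tell a several-fold difference of Dll4 from none. Foxn1, the transcription factor that thymic epithelium needs to form and to express Dll4, had levels of 0.20 and 1.10 in Meis1-high, 1.25 and 1.35 in the Meis1-low pair, and -0.68 and 0.92 in Meis1-negative. Psmb11, a cortical proteasome subunit, had 3.64 and 4.37 in Meis1-high, 2.21 and 1.33 in the Meis1-low pair, and -1.37 and 2.52 in Meis1-negative.

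Dll1, a Delta ligand that can also drive T cell differentiation in culture, was read by a probe printed in 10 spots at chr17:15504623-15504682 (minus strand). Its levels were -0.73 and 1.22 in Meis1-high, -0.94 and -0.44 in the Meis1-low pair, and -3.87 and -0.59 in Meis1-negative. On Meis1-negative replicate 1, 2 of the 10 spots were well above background. Its 10 spots had an SD of 0.41 there and of 0.049 to 0.10 on the other 5 arrays. Against Meis1-negative, Meis1-high differed by 2.48 ± 1.16 (limma adjusted p = 0.514), with both slides in that direction, and 0.84 without Meis1-negative replicate 1. The gates overlapped, since Meis1-high replicate 1 was below Meis1-negative replicate 2.

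Jag1, a Serrate-type ligand expressed in thymic stroma, has a brighter probe at chr2:136907433-136907492 (minus strand). Its levels were 1.45 and 2.17 in Meis1-high, 0.59 and 1.09 in the Meis1-low pair, and -1.50 and 1.28 in Meis1-negative. Again the Meis1-high pair lay above the other 4 arrays, by a small margin over Meis1-negative replicate 2. Meis1-high minus Meis1-low was 0.97 ± 0.95 (limma adjusted p = 0.717). Meis1-high minus Meis1-negative was 1.92 ± 0.95 (limma adjusted p = 0.543), and 0.53 without Meis1-negative replicate 1. The dimmer Jag1 probe printed above had -1.73 and -1.65 in Meis1-high, -3.75 and -3.40 in the Meis1-low pair, and -5.86 and -2.20 in Meis1-negative, where replicate 1 was not well above background and holds a surrogate. It too was higher on both Meis1-high arrays than on both Meis1-low arrays. Its Meis1-high minus Meis1-low difference was 1.88 ± 1.12 (limma adjusted p = 0.544).

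Jag2, the other Serrate-type ligand, was the ligand with the smallest unadjusted p. Its probe at chr12:114146887-114146946 (minus strand) had levels of 0.08 and 0.29 in Meis1-high, -2.76 and -2.01 in the Meis1-low pair, and -3.84 and -2.09 in Meis1-negative. The Meis1-high pair was above the other 4 arrays by more than 2, and Meis1-negative replicate 1 was not well above background. The difference Meis1-high minus Meis1-low was 2.57 ± 0.76, with a 95% confidence interval from 0.79 to 4.35 (unadjusted p = 0.0110, limma adjusted p = 0.271). Against Meis1-negative, the difference was 3.15 ± 0.76 (unadjusted p = 0.00396, limma adjusted p = 0.294), and 2.27 without Meis1-negative replicate 1. Meis1-low minus Meis1-negative was 0.58 ± 0.76 (limma adjusted p = 0.844).

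Promoter sequence was taken from RefSeq on GRCm38.p6, as the 250 bases before each annotated start, and 8 of the 10 genes had an entry, Dll1 with 2 starts. The windows were searched on both strands for TGACAG, the core bound by Meis proteins (reverse CTGTCA), and for TGGGAA, the core bound by Rbpj (reverse TTCCCA). These motifs do not overlap each other in any of the windows. TGACAG occurs in 15.9% of all 32851 windows of this length, and 2 times or more in 1.64%. TGGGAA occurs in 21.6%. It is in none of the 9 member windows, while TGACAG is in those of Dll4, Dll1, Notch3 and Notch4 and not in those of Notch1, Notch2, Jag1 and Jag2. The Dll4 window, at chr2:119325534-119325783 on the plus strand, is shown because it holds the core 2 times, beginning 131 and 27 bases before the start, and 1 of the Dll1 windows, at chr17:15376933-15377182 on the minus strand, because Dll1 is the other Delta ligand here. It holds the core beginning 75 bases before the start. Capitals mark TGACAG.
Dll4: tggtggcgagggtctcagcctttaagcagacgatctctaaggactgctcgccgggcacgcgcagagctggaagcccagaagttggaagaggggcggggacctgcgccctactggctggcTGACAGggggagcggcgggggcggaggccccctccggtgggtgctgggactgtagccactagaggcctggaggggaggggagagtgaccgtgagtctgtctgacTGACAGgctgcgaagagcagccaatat
Dll1: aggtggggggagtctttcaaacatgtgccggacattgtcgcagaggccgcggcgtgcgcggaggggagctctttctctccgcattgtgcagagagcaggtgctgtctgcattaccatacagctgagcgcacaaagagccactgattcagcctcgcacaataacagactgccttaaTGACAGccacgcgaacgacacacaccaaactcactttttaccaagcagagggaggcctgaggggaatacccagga
A match describes letters in the window and not a site in use. Of the genes with a match, Notch3 had a higher mean in Meis1-high than in Meis1-low. Notch4 had a lower mean, from signals not well above background in Meis1-high, and Dll1 and Dll4 overlapped between these gates. The part of the motif in these differences was not tested.

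Among the targets, Hes1, a basic helix-loop-helix repressor, had levels of 1.27 and -0.55 in Meis1-high, -2.23 and -3.41 in the Meis1-low pair, and 2.53 and -2.26 in Meis1-negative. The Meis1-high and Meis1-low pairs did not overlap, and Meis1-negative spanned nearly the whole range. Meis1-high and Meis1-low differed by 3.19 ± 1.49, the largest of the members in that comparison, with an unadjusted p of 0.0676 and a limma adjusted p of 0.425. Within the slides it was 3.51 and 2.86. Meis1-high minus Meis1-negative was 0.23 ± 1.49 (limma adjusted p = 0.963), with slides of -1.25 and 1.71, and 2.62 without Meis1-negative replicate 1 (limma adjusted p = 0.563).

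Hey1, the Hairy-related repressor that answers to Notch in several tissues, was read at chr3:8663432-8663491 (minus strand). Its levels were 4.14 and 4.93 in Meis1-high, 2.57 and 2.45 in the Meis1-low pair, and 1.78 and 3.28 in Meis1-negative. Neither other gate reached the Meis1-high pair, and the Meis1-low pair lay within the Meis1-negative pair. Meis1-high minus Meis1-low was 2.03 ± 0.73, with a 95% confidence interval from 0.33 to 3.73 (unadjusted p = 0.0255, limma adjusted p = 0.319). Meis1-high minus Meis1-negative was 2.01 ± 0.73 (unadjusted p = 0.0264, limma adjusted p = 0.414), and 1.26 without Meis1-negative replicate 1. Meis1-low minus Meis1-negative was -0.02 ± 0.73.

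**Figure D2:**
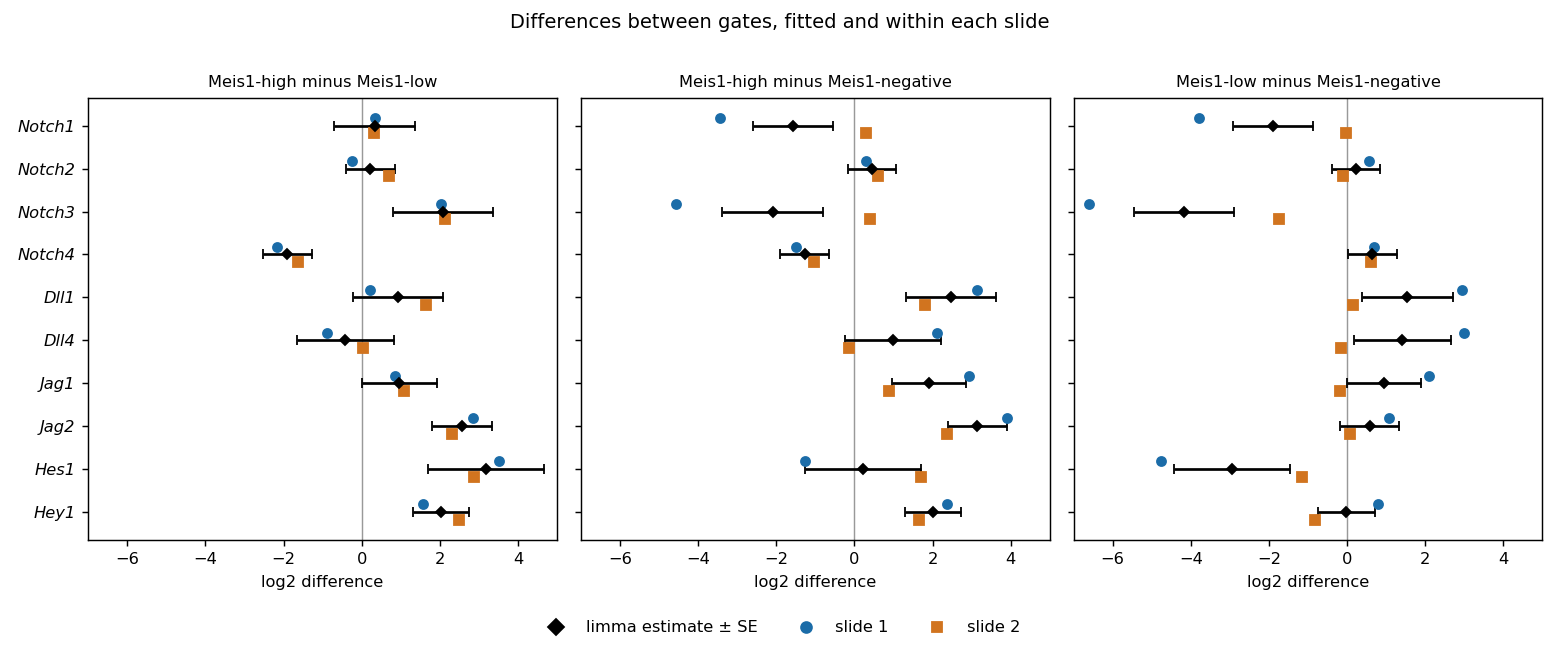
Log2 differences of the 10 genes in the 3 comparisons. Diamonds are limma estimates with bars of 1 SE, circles the difference within slide 1 and squares that within slide 2. In Meis1-high minus Meis1-low the slides lie close together for Notch1, Notch3, Jag1 and Jag2, and in both comparisons with Meis1-negative they part for Notch1, Notch3, Hes1, Dll4 and Jag1.

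Counted over the members in Meis1-high against Meis1-low, 0 of 10 passed the adjusted test, as did 0% of all 18221 genes, of which 2359 had an unadjusted p under 0.05. Jag2 and Hey1, higher in Meis1-high, and Notch4, lower, were the 3 members with an unadjusted p under 0.05 (for Notch4, from signals not well above background in Meis1-high), a threshold that 4.67% of all genes passed in the higher direction and 8.28% in the lower. Both Meis1-high arrays were above both Meis1-low arrays for 5 members (Notch3, Jag1, Jag2, Hes1 and Hey1), where 22.6% of all genes were. They were below for Notch4 alone, where 31.1% of all genes were. The members' median difference was 0.95, against -0.15 over all genes, and 8 of 10 had the same sign on both slides. In the same comparison, erythroid markers had a median difference of -2.90, with 5 of 5 tested lower in Meis1-high, and dendritic cell and macrophage markers one of -1.82, with 8 of 10 lower. Their part in the members' differences was not tested. Fitted without Meis1-negative replicate 1, which narrows the shared spread, 5 members had an unadjusted p under 0.05 in this comparison, Hes1 and Notch3 being added, as did 3599 genes, and 0 passed the adjusted test.

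In Meis1-high against Meis1-negative, 0 members passed, as did 0% of all genes, with 1917 genes at an unadjusted p under 0.05. The 2 members at that level were Jag2 and Hey1, higher in Meis1-high, as 5.69% of all genes were at that level, while 4.84% were lower. Both Meis1-high arrays were above both Meis1-negative arrays for Jag1, Jag2 and Hey1, as for 19.3% of all genes, and below for Notch4, as for 20% of them. The median difference was 0.72 over the members and -0.10 over all genes. Set against Meis1-negative replicate 2 alone, Hes1 joined the higher members, as for 30.6% of all genes, and Dll4 the lower, as for 38.3%. The members' median was then 0.38. For Dll4 the gap between the second replicates was narrow, at -2.29 in Meis1-high and -2.16 in Meis1-negative. Its signal on Meis1-high replicate 1 was not well above background.

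In Meis1-low against Meis1-negative, 0 members passed, as did 0% of all genes, with 1472 genes at an unadjusted p under 0.05. Notch3 was the only member at that level, lower in Meis1-low, as 3.06% of all genes were at that level, while 5.02% were higher. Both Meis1-low arrays were below both Meis1-negative arrays for Notch1 and Notch3, as for 15.8% of all genes, and above for 0 members, where 23.5% of all genes were. For Notch1 this rests on a narrow gap between the second replicates, at 2.30 in Meis1-low and 2.32 in Meis1-negative. The other Notch1 probe overlapped, at 1.32 and 1.26 on these arrays. The members' median was 0.40, against 0.05 over all genes, and -0.39 without Meis1-negative replicate 1. Set against Meis1-negative replicate 2 alone, both Meis1-low arrays were lower for 5 members, as for 31% of all genes, and higher for Notch4, as for 36.6%. The 5 were Notch3, Dll4, Jag1, Hey1 and, by that narrow gap on 1 of its probes, Notch1. Gaps on the second replicates were narrow for Dll4 and Jag1 too, at -2.33 against -2.16 and 1.09 against 1.28. The comparisons share arrays, so their counts are not independent of each other.

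The spread between replicates was widest in Meis1-negative. There, 6 of 10 members differed by over 4-fold between the 2 arrays, where 22.6% of all genes did. With signals raised to the lowest signal well above background on the array, 5 of 10 members and 15.8% of all genes did. In Meis1-high and in Meis1-low 0 members did, where 9.47% and 6.81% of genes did. Replicate 1 minus replicate 2 in Meis1-negative was 4.78 for Hes1, 4.34 for Notch3 and 3.13 for Notch1, each larger than the difference of at least 98.5% of genes. It was -2.78 for Jag1 and -1.50 for Hey1, values below which 8.62% and 24.7% of all genes lay. Dll4, Dll1 and Jag2 were not well above background on replicate 1, so only a bound holds: they were lower than on replicate 2 by at least 1.53, 3.09 and 1.60 on the log2 scale. The differences of Notch1, Notch3 and Hes1 had the sign of most thymocyte markers, and those of the 4 ligands and Hey1 the sign of the epithelial markers. The remaining receptors had smaller differences, -0.46 for Notch2 and 0.63 for Notch4. Over all genes the median for this pair was -0.21, so the negative sign was also the commoner one among all genes. The sizes for Jag2 and Hey1 were within the common range of genes for this pair. The part of thymocyte RNA in these values was not tested.

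**Figure D3:**
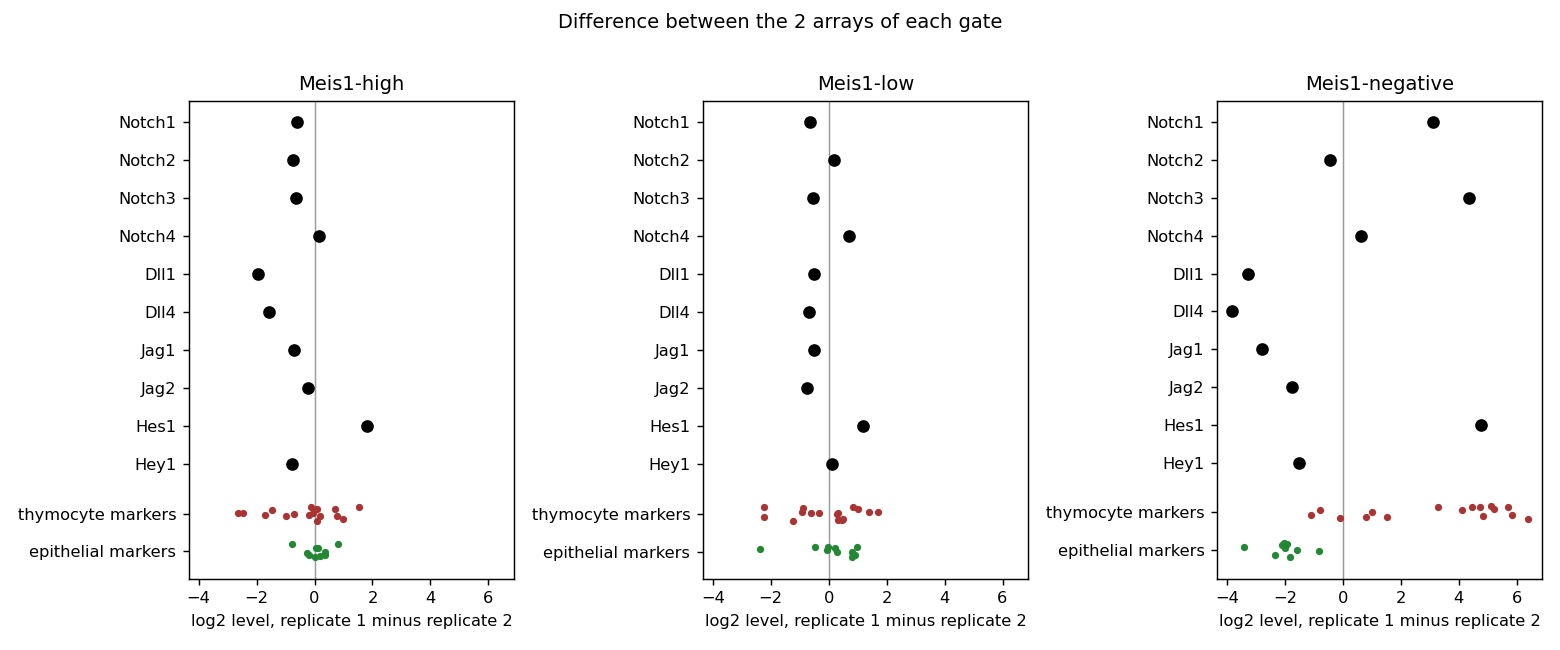
Replicate 1 minus replicate 2 (log2 level) within each gate, for the 10 genes (black) and for each tested thymocyte marker (red) and epithelial marker (green), the last 2 spread slightly in height to separate points. Dll4, Dll1 and Jag2 are drawn at their measured signal, which was not well above background on Meis1-negative replicate 1. In Meis1-negative, Notch1, Notch3 and Hes1 lie to the right with most thymocyte markers, and the ligands to the left with the epithelial markers. Notch4 also lies to the right, and Notch2 and Hey1 to the left.

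The other genes of the pathway were taken as a list of 59, of which 58 are on the array and 52 were tested. In each of the 3 comparisons 0 of the 52 passed the adjusted test. The counts at an unadjusted p under 0.05 were 4 in Meis1-high against Meis1-low, 6 in Meis1-high against Meis1-negative and 2 in Meis1-low against Meis1-negative. These are 7.69%, 11.5% and 3.85% of the 52, beside 12.9%, 10.5% and 8.08% of all genes. Without Meis1-negative replicate 1 the counts were 9, 1 and 0, or 17.3%, 1.92% and 0%, beside 19.8%, 8.39% and 3.48% of all genes. In the main fit the median differences of the 52 were 0.37, -0.11 and -0.02, beside -0.15, -0.10 and 0.05 for all genes. Without Meis1-negative replicate 1 the last 2 became 0.068 and -0.11, beside -0.12 and 0.04 for all genes. Cntn6, Aph1c, Maml3, Hes3, Hes7 and Hey2 did not pass the filter on dim probes.

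Of 6 tested atypical ligands, Dll3, a Delta protein that acts within the cell, had levels of 1.48 and 0.88 in Meis1-high, 0.05 and -0.37 in the Meis1-low pair, and -0.59 and -0.35 in Meis1-negative. The Meis1-high pair was above the other arrays, with a Meis1-high minus Meis1-negative difference of 1.65 ± 0.61 (unadjusted p = 0.0287, limma adjusted p = 0.423). Dner, a transmembrane ligand, was at 1.80 and 1.41, 1.25 and 0.73, and -1.18 and 0.21 over the gates in that order, a Meis1-high minus Meis1-negative difference of 2.09 ± 0.70 (limma adjusted p = 0.389), and 1.40 without Meis1-negative replicate 1. Dlk1, a Delta-like protein without the receptor-binding domain, was highest in Meis1-low, at 0.68 and 0.04, against -1.19 and -1.66 in Meis1-high and -2.77 and -0.73 in Meis1-negative. Cntn1, an adhesion protein, differed by -2.57 ± 1.02 between Meis1-high and Meis1-low (limma adjusted p = 0.359).

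Of the 6 genes that modify or process the receptors, Lfng, the Fringe glycosyltransferase that favours Delta over Jagged ligands, had levels of -2.12 and -0.58 in Meis1-high, -0.79 and 0.76 in the Meis1-low pair, and 1.55 and 0.60 in Meis1-negative. Both Meis1-high arrays were below both Meis1-negative arrays, with a difference of -2.43 ± 0.85 (limma adjusted p = 0.403), and -1.95 without Meis1-negative replicate 1. Poglut1 and Mfng had Meis1-high minus Meis1-low differences of -1.47 and -1.28. Of the 4 ubiquitin ligases that act on ligands, Mib2 had a difference of 2.01 ± 0.65 in that comparison (limma adjusted p = 0.292). Neurl1b had -0.76 there, and Neurl1a 2.07 in Meis1-high minus Meis1-negative, or 0.35 without Meis1-negative replicate 1. The 8 tested proteolysis genes were at a median of 0.14 between Meis1-high and Meis1-low, and among them Aph1a had 1.64, with 1.15 and -0.52 in Meis1-high and -2.46 and -0.18 in Meis1-low, which overlapped.

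In the transcription complex, Rbpj had close replicates in every gate, with levels of -0.00 and 0.02 in Meis1-high, 1.40 and 1.36 in the Meis1-low pair, and 1.26 and 1.12 in Meis1-negative. Both Meis1-high arrays were below the other 4, opposite to Hey1 and Jag2. Meis1-high minus Meis1-low was -1.37 ± 0.58 (unadjusted p = 0.0471, limma adjusted p = 0.380), and Meis1-high minus Meis1-negative was -1.18 ± 0.58 (limma adjusted p = 0.532). The coactivator gene Maml2 had 0.79 and 0.86 in the same comparisons, the latter turning to -0.077 without Meis1-negative replicate 1.

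Among genes of turnover and feedback, Nrarp, an inhibitor that Notch itself switches on, had levels of 1.54 and 1.56 in Meis1-high, 0.46 and 0.75 in the Meis1-low pair, and -0.94 and 0.76 in Meis1-negative. Here too the Meis1-high pair was on top, with differences of 0.94 ± 0.73 and 1.64 ± 0.73 (limma adjusted p = 0.635 and 0.493), the latter 0.79 without Meis1-negative replicate 1. Numbl, a Numb family adaptor, differed by 1.85 ± 0.65 between Meis1-high and Meis1-low (limma adjusted p = 0.313). Dtx1, a Notch-dependent ligase gene in lymphocytes, was at -2.79 and -5.21 in Meis1-high, -2.74 and -3.08 in the Meis1-low pair, and 0.98 and -2.51 in Meis1-negative, a Meis1-high minus Meis1-negative difference of -3.24 ± 1.25 (limma adjusted p = 0.439) and of -1.49 without Meis1-negative replicate 1. Heyl, the Hey-like repressor gene, was at -0.02 and 0.34 in Meis1-high, -0.41 and -0.91 in the Meis1-low pair, and -1.23 and -1.32 in Meis1-negative. Its 3 gates did not overlap, and Meis1-high minus Meis1-negative was 1.44 ± 0.60 (unadjusted p = 0.0454, limma adjusted p = 0.464).

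The 6 genes that Notch switches on or sustains in developing T cells all had a higher mean in Meis1-negative than in the other gates, with medians of -2.10 for Meis1-high and -1.98 for Meis1-low minus Meis1-negative. This rests on Meis1-negative replicate 1: without it, 3 of the 6 had a higher mean in Meis1-negative than in Meis1-high and 4 a higher mean than in Meis1-low, with medians of 0.11 and -0.40. Ptcra, the pre-T cell receptor chain, was at 4.48 on Meis1-negative replicate 1 and between -1.36 and 0.42 on the other 5 arrays. Bcl11b and Gata3, both T lineage factors, were at 4.68 and 4.57 on that array and at -0.28 and 0.83 on the second Meis1-negative array. Tcf7, which encodes the T lineage factor TCF1, was high on both, at 5.06 and 2.48, against -0.31 and 0.04 in Meis1-high and 1.79 and 1.70 in Meis1-low. Its Meis1-high minus Meis1-negative difference was -3.90 ± 0.89 (unadjusted p = 0.00287, limma adjusted p = 0.271), and -2.61 without Meis1-negative replicate 1. The part of thymocyte RNA in these differences was not tested.

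**Figure D4:**
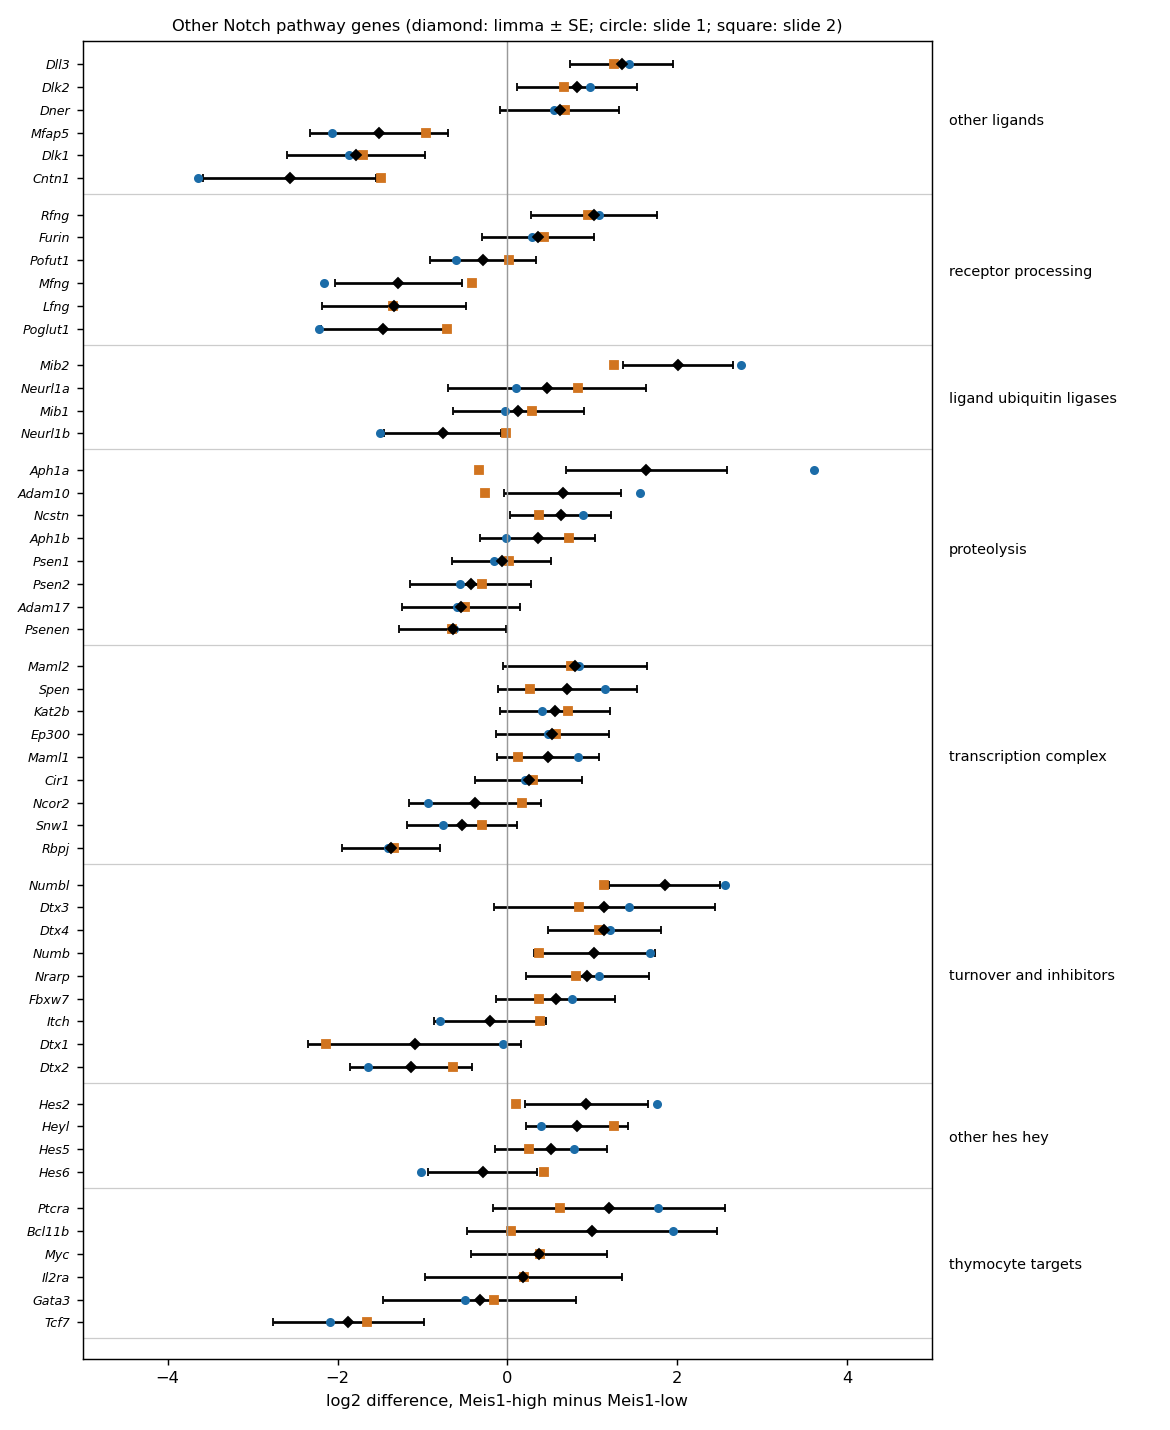
Meis1-high minus Meis1-low log2 difference of the 52 tested pathway genes, by role. Diamonds with bars are limma estimates ± 1 SE, circles slide 1 and squares slide 2. Mib2 and Numbl have the largest positive estimates and Cntn1 the largest negative, and Rbpj has nearly the same value on both slides.

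For 4 members, the tested genes with the most similar pattern were sought as those with the highest Pearson r over the 6 arrays, among 18205 genes measured on all of them. For Dll4 these were Htr3a (0.999), Sema6d (0.998) and Dagla (0.996). For Notch1 they were Casp8ap2 (0.999), Mtf2 (0.995) and Sec24a (0.995). For Hes1 they were Rhobtb3 and Mpzl2, both at 0.998, and an array transcript without a gene symbol. Jag1 was most like Pkd2 (0.998), Nectin1 (0.996) and a further transcript without a symbol. With 6 arrays, of which Meis1-negative replicate 1 is at the end of the range for Notch1, Hes1, Dll4 and Jag1, such values describe these arrays and nothing more.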

How the data were processed

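Per the labels' protocols, 10 ng of RNA per pool was amplified and labelled with Cy3. The deposited scanner files give intensity after background subtraction by the authors, read with Agilent Feature Extraction 9.5.3.1 per the submitters' processing notes. The authors' deposited value table is on a log2 scale and was used as an alternative. Its columns have medians from -0.17 to 0.16, its probes are centred on a median of 0, and higher means more signal. Each column has a correlation of 0.99992 to 0.99998 with that array's levels used here, once each probe's median over the arrays is subtracted. How the authors scaled the deposited table is not given in the sources used here.

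Control and outlier spots were left out of the 43379 non-control spots, the rest averaged per probe, and each array's 75th percentile subtracted on the log2 scale. Probes well above background (the scanner's mark, at 13 times the background SD) on the 2 arrays of any gate were kept, 26590 of 41174, and the brightest represented a gene. The fit used limma 3.58.1 in R 4.3.3, 1 mean per gate over 6 arrays (3 residual and 4.33 prior degrees of freedom), with Benjamini-Hochberg adjustment over 18221 genes and a threshold of 0.05. The procedure was tested on simulated data for Meis1-high minus Meis1-negative, with 50 genes at each of 4 true log2 differences. It called 0 of 50 at 1, 0 at 2, 25 at 4 and 49 at 6. A count of 0 members called therefore does not show that differences of 2 were absent. The simulation gave a gene the same spread in every gate, whereas the measured Meis1-negative arrays spread more widely than the others. Its call rates need not hold for these data. The number of arrays limits the precision, and beyond naming pools of mice in 2 experiments the labels do not say how the pools were made, so p-values measure the spread between pools. Deviations of arrays with the same replicate number, which share a slide per the file headers, correlated across genes at 0.125 to 0.209. Named genes were all members, the 2 smallest unadjusted p of each pathway list and comparison (most printed), a few set genes, and the 3 most similar genes of 4 members. Members, lists and tests were chosen with earlier results of these data known. Alternatives were background correction, scaling, filters, a floor, a replicate block, probe averaging, the variance model, the authors' values and each array left out. Figures used Python 3.11.15, matplotlib 3.10.9 and pandas 2.3.3.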

Additional observations from a re-analysis of the deposited data

How the results depend on the processing

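Precision was set by 2 arrays per gate, and signals near background, such as those of Notch4 and Dll4, have no reliable size. The sizes for Hes1, Jag2 and Notch3 also depended on the background correction. Over 10 other settings, 294 of the members' 300 values kept direction and side of the threshold, but the filters, the block and the variance model leave these estimates unchanged by construction, and staying uncalled with 2 arrays per gate shows no stability. With normexp correction (offset 50), 1 member was called in Meis1-high against Meis1-low (Hey1, 1.99) and 1 in Meis1-low against Meis1-negative (Notch3, -2.14), and 242, 307 and 129 genes were called in the 3 comparisons. In Meis1-high minus Meis1-low it gave 1.15 for Hes1, 1.09 for Jag2 and 0.57 for Notch3, against 3.19, 2.57 and 2.08 in the main fit. It turned Hes1 to -0.11 and Notch4 to 0.032 in Meis1-high minus Meis1-negative, and moved the median of all genes there from -0.10 to 0.07. Median scaling moved it to -0.20 and called 73 genes there and 13 in Meis1-low against Meis1-negative. In Meis1-high against Meis1-negative the floor called 21 genes, and the trended, robust variance 4. Averaging probes turned Notch2 to -0.13, and the authors' values turned Hey1 to 0.012, both in Meis1-low minus Meis1-negative. With the replicate block, 0 members and 0 genes were called in each comparison, and the smallest adjusted p of a member was 0.247, 0.289 and 0.522. The block changed no call. The causes were not tested.

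With each array left out in turn, the members called ranged from 0 to 2 in Meis1-high against Meis1-negative and from 0 to 3 in Meis1-low against Meis1-negative, and the genes called from 0 to 947 and from 0 to 1263. The highest counts came without Meis1-negative replicate 2, where the array left is assumed to vary like the other gates: Jag2 (4.02) and Notch3 (-4.26) in the first comparison, and Notch1 (-3.47), Notch3 (-6.35) and Hes1 (-5.35) in the second. Directions turned as follows. In Meis1-high minus Meis1-low, Dll4 ranged from -1.22 to 0.37, Dll1 from -0.041 to 1.91 and Notch2 from -0.15 to 0.59. In Meis1-high minus Meis1-negative, Hes1 ranged from -2.16 to 2.62, Dll4 from -0.93 to 2.90 and Notch3 from -4.26 to 0.082. In Meis1-low minus Meis1-negative, Hey1 ranged from -0.77 to 0.73, Dll1 from -0.095 to 3.18, Dll4 from -0.50 to 3.33, Jag1 from -0.44 to 2.34 and Jag2 from -0.30 to 1.45.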
